A study of Mus musculus with 12 samples.

Results

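Erbb3, Apoe, Ncmap, Fabp7, S100b and Sox10 are 6 mouse genes grouped here as genes of olfactory ensheathing glia. They were followed through RNA from sorted cells of the olfactory mucosa, the sensory lining of the nose. The 6 were picked by name and make up 6 of the 19938 genes measured. Each was read by 1 probe set that carries no other gene symbol: 10373467 for Erbb3, 10560624 for Apoe, 10517364 for Ncmap, 10363224 for Fabp7, 10364149 for S100b and 10430458 for Sox10.

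All mice carried S100a5-tauGFP, a fluorescent reporter of S100a5, whose transcription in olfactory sensory neurons follows their activity. There were 4 groups of 3 arrays: GFP-positive cells of odor mice, GFP-positive cells of vehicle mice, GFP-negative cells of odor mice and GFP-negative cells of vehicle mice. Mice of both sexes, 7 to 12 weeks old, sat alone in a clean air chamber for 40 hours and, from 26 hours on, received 10-second pulses every 20 minutes of a citrus accord (odor, 5% in the series title) or of filtered air (vehicle). The 18 mice were taken to form 6 pools of 3, each giving 1 array of each fraction. On that reading the fractions came from the same mice and the treatments from different mice. The pools keep their title numbers, 2, 3 and 4 for odor and 1, 2 and 4 for vehicle. GFP reports S100a5 and not glia. The GFP-negative fraction is a mixture of every cell without enough reporter signal, and fewer cells of a type and less RNA per cell cannot be told apart in such samples.

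Ensheathing glia are neural crest-derived cells that wrap bundles of olfactory axons on their way to the bulb without laying down myelin. The transcription factor Sox10 specifies crest-derived glia, and the receptor Erbb3 receives neuregulin from axons. Fabp7 (brain lipid-binding protein) and S100b (a calcium-binding protein) are used as stains for these glia, Apoe encodes a lipid carrier that glia and macrophages secrete, and Ncmap encodes a protein of non-compact myelin in Schwann cells.

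RefSeq start regions (GRCm38.p6, 250 bases before to 50 after the start site) were at hand for 4 of the 6 genes, Apoe, Ncmap, Fabp7 and S100b. Those of Apoe and Fabp7, which were lower in GFP-positive cells, are shown with that of Ncmap, which was higher there. For Apoe and Ncmap, which have several starts in the table, the one listed first is given. Capitals mark the letters ACAAAG or ACAATG, read by factors of the SOX family, on either strand. The Apoe region is chr7:19699139-19699438 (minus strand), the Fabp7 region chr10:57784673-57784972 (plus strand) and the Ncmap region chr4:135398178-135398477 (minus strand).
Apoe: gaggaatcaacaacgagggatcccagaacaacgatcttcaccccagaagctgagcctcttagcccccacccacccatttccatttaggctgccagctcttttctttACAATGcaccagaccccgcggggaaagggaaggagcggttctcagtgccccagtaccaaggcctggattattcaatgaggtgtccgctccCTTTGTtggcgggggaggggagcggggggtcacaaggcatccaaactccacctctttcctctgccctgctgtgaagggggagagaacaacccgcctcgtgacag
Fabp7: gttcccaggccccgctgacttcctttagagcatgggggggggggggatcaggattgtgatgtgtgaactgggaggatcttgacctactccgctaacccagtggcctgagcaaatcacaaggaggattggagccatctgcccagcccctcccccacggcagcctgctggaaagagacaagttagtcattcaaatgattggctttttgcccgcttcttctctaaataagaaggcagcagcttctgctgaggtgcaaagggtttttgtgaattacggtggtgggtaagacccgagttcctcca
Ncmap: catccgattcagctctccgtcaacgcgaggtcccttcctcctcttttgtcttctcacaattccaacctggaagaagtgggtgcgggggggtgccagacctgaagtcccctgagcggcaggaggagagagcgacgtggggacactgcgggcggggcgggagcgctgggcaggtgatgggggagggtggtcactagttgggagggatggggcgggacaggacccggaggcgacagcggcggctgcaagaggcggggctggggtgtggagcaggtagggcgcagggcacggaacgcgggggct
The Apoe region held ACAATG beginning at base -144 and, on the other strand, ACAAAG as CTTTGT beginning at base -54, both counted from the start site. The regions of Fabp7, Ncmap and S100b (chr10:76253586-76253885, plus strand) held neither. None of the 4 held GCCNNNGGC, read by TFAP2 factors of the neural crest. Among 27025 regions of the same length, 18.7% held ACAAAG, 12.8% ACAATG, 28.8% at least one of them and 16.5% GCCNNNGGC. A match describes the letters in these windows and is not a binding site.

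The comparison of the fractions asks which of the 6 transcripts differed between cells with and without the activity reporter. Values are log2 as deposited, differences are GFP-positive minus GFP-negative cells and carry the fitted standard error (SE), and a gene is called where limma's Benjamini-Hochberg adjusted p over all genes is under 0.05. Erbb3, Apoe, Fabp7 and Sox10 fell, Ncmap rose and S100b did not pass, in odor mice and in vehicle mice alike. In odor mice 52.2% of all genes were called, 33.5% higher and 18.7% lower, and in vehicle mice 48%, 29.9% higher and 18.2% lower. At an unadjusted p under 0.05, 5 of the 6 passed in each treatment, against 58.3% of all genes in odor and 53% in vehicle mice. In both treatments 25.6% of genes were called higher and 16.5% lower. With 5 of 6 called in a sort that moved about every second gene, the count says little, and the sizes and directions carry the description. The groups did not overlap for 5 of the 6 genes in odor mice, against 60.7% of all genes, and for 4 of the 6 in vehicle mice, against 57.4%. The 6 genes had a median difference of -0.83 in odor mice and -0.82 in vehicle mice, against 0.134 and 0.0562 over all genes. The split of the calls over all genes depended on how arrays were scaled to one another. Centring each array on its median gave 58.7% higher and 15.3% lower in odor mice and 46.9% and 14.3% in vehicle mice, and moved the median of all genes by 0.14 and 0.146. Cyclic loess gave 19.2% higher and 26.5% lower in odor mice and 19.3% and 24.8% in vehicle mice, and moved it by -0.131 and -0.061. The 5 calls among the 6 genes kept their direction under each of these scalings.

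**Figure D1:**
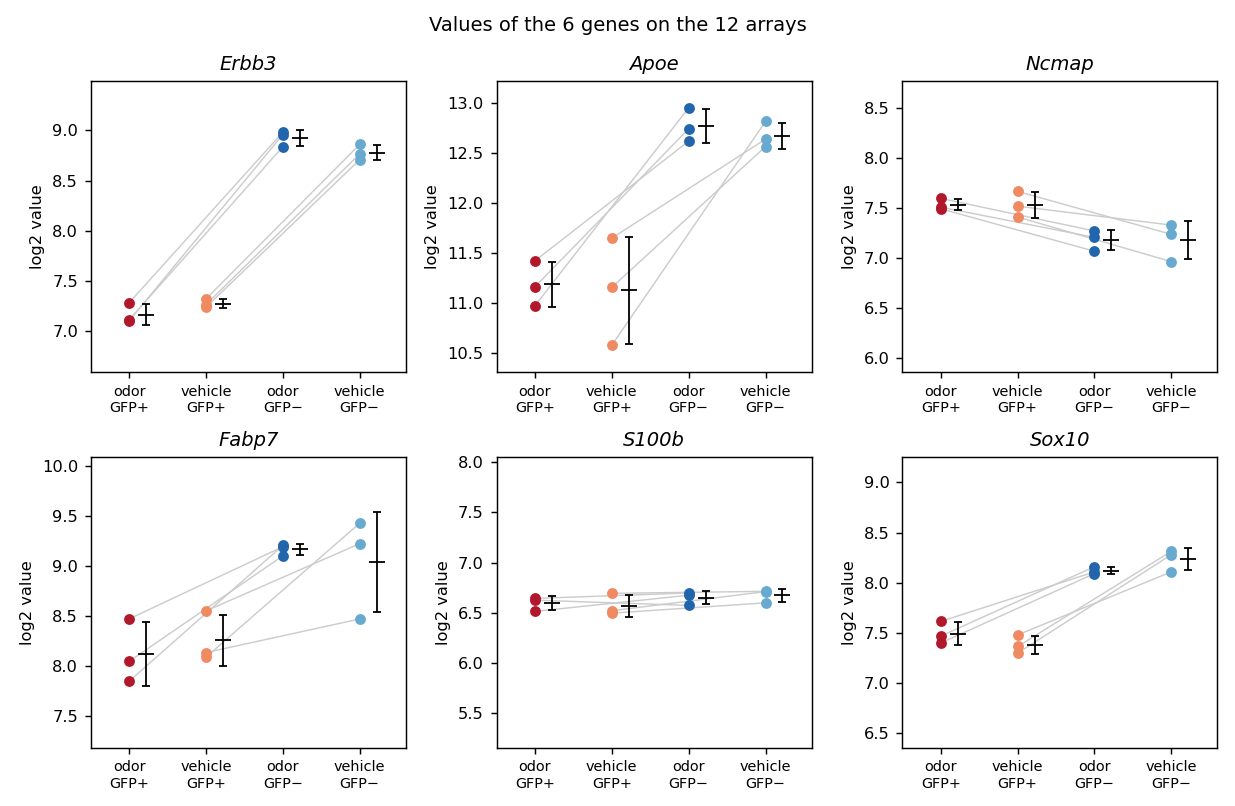
Deposited log2 values (y axis, the same span in every panel) of the 6 genes on the 12 arrays by group (x axis); grey lines join the fractions of a pool, and black marks are the mean and SD of 3 arrays. Erbb3, Apoe and Sox10 lay lower on every GFP-positive array than on any GFP-negative one, Ncmap lay higher, Fabp7 overlapped in vehicle mice and S100b overlapped in both treatments.

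Sox10, the transcription factor of crest-derived glia, was read at 7.47, 7.40 and 7.61 in GFP-positive cells of odor pools 2, 3 and 4, against 8.16, 8.09 and 8.11 in their GFP-negative cells. In vehicle pools 1, 2 and 4 it was 7.36, 7.48 and 7.30 in GFP-positive cells, against 8.31, 8.11 and 8.28 in GFP-negative cells. The fractions did not overlap in either treatment. Sox10 fell by 0.63 in odor mice (SE 0.08, 1.54-fold, adjusted p = 5.82e-05) and fell by 0.85 in vehicle mice (SE 0.08, 1.81-fold, adjusted p = 4.67e-06, limma).

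Erbb3, the neuregulin receptor that lacks a strong kinase of its own and signals with a partner, gave 7.11, 7.28 and 7.10 in GFP-positive cells of odor pools 2, 3 and 4, against 8.84, 8.98 and 8.96 in their GFP-negative cells. In vehicle pools 1, 2 and 4 it gave 7.27, 7.32 and 7.24 in GFP-positive cells, against 8.77, 8.86 and 8.71 in GFP-negative cells. The arrays of a group lay close together, and the gap between fractions was many times their spread. The group means were 7.17 ± 0.10 and 8.93 ± 0.08 in GFP-positive and GFP-negative cells of odor mice, and 7.28 ± 0.04 and 8.78 ± 0.08 in those of vehicle mice (SD, n = 3 each). Erbb3 fell by 1.76 in odor mice (SE 0.08, 3.39-fold, adjusted p = 4.93e-09) and fell by 1.50 in vehicle mice (SE 0.08, 2.84-fold, adjusted p = 1.77e-08, limma).

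Apoe, the lipid carrier, was the least even of the 6 within GFP-positive cells. It gave 11.42, 11.16 and 10.97 in GFP-positive cells of odor pools 2, 3 and 4, against 12.62, 12.74 and 12.95 in their GFP-negative cells. In vehicle pools 1, 2 and 4 it gave 11.65, 11.16 and 10.58 in GFP-positive cells, against 12.63, 12.56 and 12.81 in GFP-negative cells. GFP-positive cells spanned 10.58 to 11.65, with both ends in vehicle mice, and the fractions did not overlap. Apoe fell by 1.58 in odor mice (SE 0.21, 2.99-fold, adjusted p = 6.46e-05) and fell by 1.54 in vehicle mice (SE 0.21, 2.91-fold, adjusted p = 8.53e-05, limma).

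Fabp7, which carries fatty acids in glia and in radial glia of the developing brain, gave 7.85, 8.47 and 8.05 in GFP-positive cells of odor pools 2, 3 and 4, against 9.21, 9.19 and 9.10 in their GFP-negative cells. In vehicle pools 1, 2 and 4 it gave 8.09, 8.55 and 8.14 in GFP-positive cells, against 9.43, 9.22 and 8.47 in GFP-negative cells. The GFP-negative cells of vehicle pool 4 lay below the other 5 GFP-negative arrays and below the GFP-positive cells of vehicle pool 2, so that the fractions overlapped in vehicle mice. Fabp7 fell by 1.04 in odor mice (SE 0.22, 2.06-fold, adjusted p = 0.00178) and fell by 0.78 in vehicle mice (SE 0.22, 1.72-fold, adjusted p = 0.0108, limma). Without the GFP-negative cells of vehicle pool 1 the vehicle difference was -0.59 and no longer passed (adjusted p = 0.0522).

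S100b, the calcium-binding protein, gave 6.63, 6.51 and 6.64 in GFP-positive cells of odor pools 2, 3 and 4, against 6.57, 6.67 and 6.70 in their GFP-negative cells. In vehicle pools 1, 2 and 4 it gave 6.50, 6.69 and 6.52 in GFP-positive cells, against 6.60, 6.71 and 6.71 in GFP-negative cells. The fractions overlapped in both treatments. All 12 values lay below the median of any array, which was 7.04 at the lowest, and above the lower quartiles, 5.83 at the highest. S100b differed by -0.05 in odor mice (95% interval -0.22 to 0.11, adjusted p = 0.561) and -0.10 in vehicle mice (-0.27 to 0.06, adjusted p = 0.302, limma). It took the opposite sign with arrays centred on their median, 0.09 in odor and 0.04 in vehicle mice, and 0.01 in vehicle mice with quantile normalization, and did not pass there either.

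Ncmap, the gene of a protein of non-compact myelin, ran the other way. It gave 7.51, 7.59 and 7.49 in GFP-positive cells of odor pools 2, 3 and 4, against 7.21, 7.27 and 7.07 in their GFP-negative cells. In vehicle pools 1, 2 and 4 it gave 7.52, 7.41 and 7.66 in GFP-positive cells, against 7.33, 6.96 and 7.24 in GFP-negative cells. The fractions did not overlap in either treatment, and the gap was small. Ncmap rose by 0.35 in odor mice (SE 0.10, 1.27-fold, adjusted p = 0.0120) and by 0.35 in vehicle mice (SE 0.10, 1.28-fold, adjusted p = 0.0115, limma). The rise ranged from 0.26 with cyclic loess to 0.50 with centred arrays. The call ended without the GFP-negative cells of odor pool 4 (0.29, adjusted p = 0.0520) and without the GFP-positive cells of vehicle pool 4 (0.29, adjusted p = 0.0570).

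Pools were taken to hold the same mice in both fractions. Within pools the difference was below 0 in 6 of 6 for Erbb3, Apoe, Fabp7 and Sox10. Ncmap was above 0 in 6 of 6, and S100b was below 0 in 5 of 6. Erbb3 varied little for its size, with -1.73, -1.70 and -1.86 in odor pools 2, 3 and 4 and -1.50, -1.54 and -1.47 in vehicle pools 1, 2 and 4. The vehicle pools thus all lay closer to 0 than the odor pools. Apoe differed by -1.19, -1.58 and -1.97 in odor pools 2, 3 and 4 and by -0.99, -1.40 and -2.23 in vehicle pools 1, 2 and 4. Fabp7 differed by -1.35, -0.72 and -1.05 in odor pools 2, 3 and 4 and by -1.33, -0.67 and -0.34 in vehicle pools 1, 2 and 4. For both genes the pools of a treatment differed by more than the treatments did. Sox10 ranged from -0.69 to -0.49 in odor pools and from -0.98 to -0.63 in vehicle pools. Ncmap ranged from 0.30 to 0.42 in odor pools and from 0.19 to 0.44 in vehicle pools.

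**Figure D2:**
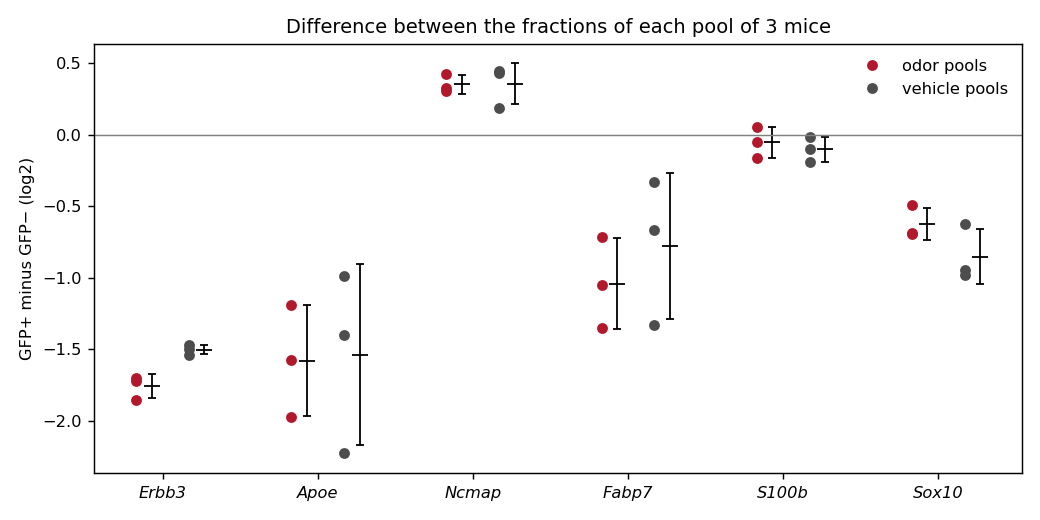
Difference between GFP-positive and GFP-negative cells of each pool of 3 mice (y axis, log2) for the 6 genes (x axis), with odor pools in red, vehicle pools in grey and the mean and SD of 3 pools in black. Erbb3 lay between -1.86 and -1.47 in all pools, Apoe spread from -2.23 to -0.99, and Ncmap alone lay above 0 in all 6.

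Other markers of ensheathing glia did not move with Erbb3 and Sox10 as a body. The 9 measured markers taken for these cells were Sox10, S100b, Fabp7, Erbb3, Npy, Frzb, Foxd3, Ngfr and Gfap. In both treatments 4 of the 9 fell and 0 rose, against 16.5% and 25.6% of all genes. Of the 4, Sox10, Fabp7 and Erbb3 belong to the 6 genes described above. Only Frzb is a further marker. Npy (-0.08 in odor and -0.14 in vehicle mice), Foxd3 (0.03 and -0.16) and Gfap (0.08 and -0.12) were called in neither, except that Gfap was called higher in odor mice with centred arrays (0.22, adjusted p = 0.0363). Ngfr, the low-affinity neurotrophin receptor, fell by 0.24 in vehicle mice (adjusted p = 0.0349) and differed by -0.00 in odor mice (adjusted p = 0.994); the interaction did not pass (adjusted p = 0.971). The vehicle call of Ngfr ended with pool as a block (-0.24, adjusted p = 0.0730), with quantile normalization (-0.14, adjusted p = 0.240) and with centred arrays (-0.10, adjusted p = 0.352). Of 16 measured genes on a longer list of ensheathing glia genes that leaves out the 6, 1 rose in both treatments and 1 fell. Both are smaller shares than those over all genes. Matn2, a matrix protein gene, rose by 0.84 in odor and 0.76 in vehicle mice, and Frzb, a secreted Wnt antagonist gene, fell (-0.57 in odor and -0.28 in vehicle mice). The 16 had a median of 0.01 in odor and -0.13 in vehicle mice. Their split was 4 higher and 0 lower with centred arrays, 1 and 0 with quantile normalization and 2 and 1 with pool as a block. Frzb lost its vehicle call with quantile normalization (adjusted p = 0.0782) and with centred arrays (adjusted p = 0.181). The name of ensheathing glia is therefore not borne out by these values for the set as a whole, and the genes are described one by one. Probe sets with low values may miss a difference, which limits what the uncalled genes can show.

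The Schwann and myelin list held 15 measured genes, of which 7 fell and 2 rose in both treatments. The shares over all genes were 16.5% and 25.6%. Egr2, a zinc finger factor needed by myelinating Schwann cells and also induced in immune cells, fell (-3.88 in odor and -4.07 in vehicle mice). Cnp, an enzyme of myelinating glia, fell (-1.91 in odor and -1.76 in vehicle mice). Ugt8a, which makes galactocerebroside, fell (-1.24 in odor and -0.96 in vehicle mice), as did Pmp22, a peripheral myelin protein gene (-0.98 and -0.90). Pllp (0.68 in odor and 0.53 in vehicle mice) and Fa2h (0.47 and 0.29), a myelin protein gene and a fatty acid hydroxylase gene, rose, the direction of Ncmap. Mag, a gene of the myelin sheath, differed by -0.06 in odor and -0.05 in vehicle mice and was called in neither. With centred arrays 5 fell and 3 rose.

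**Figure D3:**
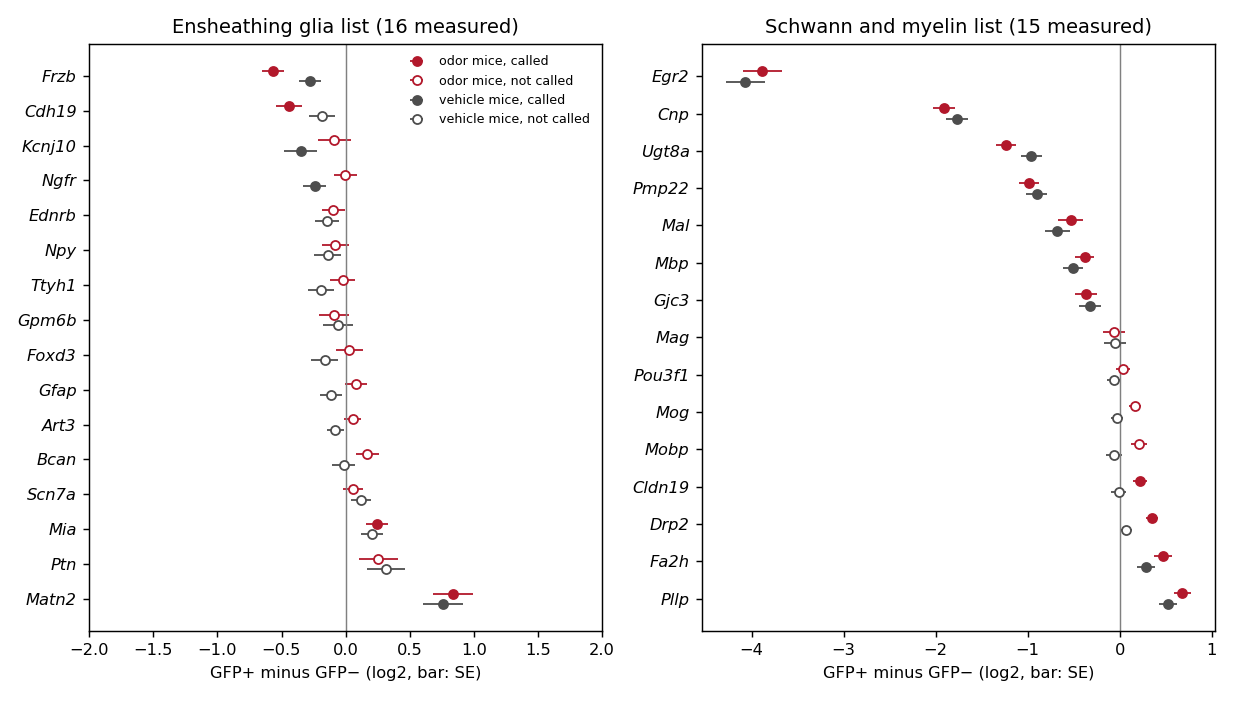
Difference between GFP-positive and GFP-negative cells (x axis, log2, bars show the SE of the fit; the panels differ in scale) for the ensheathing glia list and the Schwann and myelin list, with odor mice in red, vehicle mice in grey and filled points for genes called over all genes. Most of the 16 ensheathing glia genes lay within 0.5 of 0, and the myelin list ran from -4.07 for Egr2 to 0.68 for Pllp.

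Around Erbb3, 15 genes of neuregulin and ErbB signalling were measured, and 7 fell and 4 rose in both treatments. Of all genes 16.5% fell and 25.6% rose in both, and the 4 rises are near the second share. The neuregulin genes Nrg1 (0.09 in odor and 0.11 in vehicle mice), Nrg2 (-0.02 and -0.01) and Nrg3 (0.07 and 0.12) were called in neither treatment. Erbb2, the partner receptor, fell (-0.48 in odor and -0.48 in vehicle mice), and the related receptor Egfr fell (-0.78 in odor and -0.79 in vehicle mice). Of the sheddases that cut neuregulin, Adam17 fell (-0.94 in odor and -0.77 in vehicle mice), and Bace1 rose by 0.81 and 0.72. The adaptor Shc1 fell (-1.11 in odor and -0.89 in vehicle mice). With centred arrays 5 fell and 6 rose, among them Nrg1 (0.23 in odor mice, adjusted p = 0.0407, and 0.25 in vehicle mice, adjusted p = 0.0343) and Nrg3 (0.21 in odor mice, adjusted p = 0.0178, and 0.26 in vehicle mice, adjusted p = 0.00684).

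Around Sox10, 11 factors of the neural crest or its glia were measured. In both treatments 3 fell and 1 rose, against 16.5% and 25.6% of all genes. Zeb2, a repressor active in Schwann cells and in macrophages, fell (-2.45 in odor and -2.18 in vehicle mice). Sox9 fell (-1.88 in odor and -2.08 in vehicle mice), as did Sox2 (-1.43 and -1.27), and both also mark non-neuronal and basal cells of the olfactory epithelium. Sox8, the close relative of Sox10, differed by -0.19 in odor and -0.19 in vehicle mice and did not pass. Mitf, a factor of pigment cells, rose by 0.31 in odor and 0.40 in vehicle mice, a call that cyclic loess ended (5 lower and 0 higher in that scaling).

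Around Apoe, 16 genes of lipoprotein transport were measured. In both treatments 8 fell and 4 rose, against 16.5% and 25.6% of all genes. The 4 rises are near the share over all genes. Clu, another secreted apolipoprotein, fell (-2.95 in odor and -2.83 in vehicle mice). Abca1, the exporter that loads Apoe with lipid, fell (-2.29 in odor and -2.04 in vehicle mice). Pltp, a phospholipid transfer protein gene, fell (-1.10 in odor and -0.95 in vehicle mice), as did Lrp1, an Apoe receptor gene (-1.07 and -0.83). The receptors Vldlr (0.65 in odor and 0.74 in vehicle mice) and Lrp8 (0.51 and 0.41) rose. Apoc1, a neighbour of Apoe in the same gene cluster, differed by -0.03 in odor and -0.13 in vehicle mice and did not pass. With cyclic loess 8 fell and 1 rose, and Lrp8 lost its vehicle call (0.15, adjusted p = 0.173).

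Of 13 measured relatives of Fabp7, carriers of fatty acids and retinoids, 4 fell and 0 rose in both treatments. Among all genes 16.5% fell and 25.6% rose in both. Crabp1 fell (-1.05 in odor and -1.27 in vehicle mice), as did Fabp5 (-0.26 and -0.37), Crabp2 (-0.40 and -0.33) and Fabp4 (-0.22 and -0.29). With pool as a block 2 fell, Crabp1 and Crabp2, and the odor calls of Fabp5 (adjusted p = 0.0711) and Fabp4 (adjusted p = 0.0868) ended. With quantile normalization 2 fell, Crabp1 and Fabp4, and the calls of Fabp5 in odor (adjusted p = 0.156) and vehicle mice (adjusted p = 0.0552) and of Crabp2 in vehicle mice (adjusted p = 0.168) ended. With centred arrays 1 fell, Crabp1, and 2 rose. Of 15 S100 family genes other than S100b, the S100 receptor gene Ager among them, 7 fell and 3 rose in both treatments (7 and 5 with centred arrays or quantile normalization, 7 and 1 with cyclic loess). With the values as deposited, the share that rose was not above that of all genes. The largest falls were those of S100a9 (-4.49 in odor and -4.73 in vehicle mice) and S100a8 (-4.51 and -4.61), which neutrophils and monocytes make. S100a11 fell (-3.72 in odor and -3.90 in vehicle mice), as did S100a10 (-2.58 and -2.50). S100a5, the gene of the reporter, rose by 0.31 in odor mice (adjusted p = 0.0166) and differed by 0.19 in vehicle mice (adjusted p = 0.123), and the interaction did not pass (adjusted p = 0.988, limma). Its values ran from 5.83 to 6.48, below the median of any array (7.04 at the lowest). This limits what S100a5 can show about the sort. S100a5 was called in vehicle mice too with quantile normalization (0.29, adjusted p = 0.0163) and with centred arrays (0.34, adjusted p = 0.00861), and in neither treatment with cyclic loess (0.22 in odor mice, adjusted p = 0.0707, and 0.22 in vehicle mice, adjusted p = 0.0679).

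Markers of other cells moved in the same sort. All 12 macrophage markers fell in both treatments, with medians of -2.19 in odor and -1.84 in vehicle mice. The mean of the 12 lay between 7.09 and 7.77 on the GFP-positive arrays and between 9.29 and 9.83 on the GFP-negative ones. All 5 measured markers of sustentacular cells, the supporting cells of the epithelium, fell, and their mean lay between 8.82 and 9.53 on GFP-positive and between 10.8 and 11.3 on GFP-negative arrays. In both treatments 3 of 8 endothelial, 2 of 8 fibroblast and mural, 4 of 7 astrocyte, 2 of 4 Bowman's gland, 1 of 4 horizontal basal and 3 of 4 progenitor markers fell, and 1 astrocyte marker rose. Over all genes 16.5% were called lower and 25.6% higher in both treatments. The fibroblast and mural count and the horizontal basal count are near the first share and say little about those cells. Of 6 pigment cell markers 0 were called in both treatments. With centred arrays 2 pigment cell markers rose in both treatments, with quantile normalization 1 rose, and in either scaling 0 horizontal basal markers fell in both. Of 5 markers of immature neurons 3 fell and 2 rose. Of 6 markers of mature neurons 5 rose, Omp by 0.33 in odor and 0.31 in vehicle mice, and with cyclic loess 2 rose and Omp differed by 0.00 and 0.04. The part of these cells in the values of the 6 genes was not tested.

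Apoe and the macrophage markers ordered the arrays nearly alike. Among GFP-positive arrays both were highest in vehicle pool 1 (Apoe 11.65, marker mean 7.77), next in odor pool 2 (11.42 and 7.57) and lowest in vehicle pool 4 (10.58 and 7.09). Among GFP-negative arrays both were highest in odor pool 4 (12.95 and 9.83) and lowest in vehicle pool 2 (12.56 and 9.29). In each fraction the orders differed by 1 exchange of neighbours, odor pool 3 with vehicle pool 2 in GFP-positive and odor pool 3 with vehicle pool 4 in GFP-negative arrays. Other lists tracked Apoe in part. Among GFP-negative arrays the S100 list began as Apoe did, with odor pool 4 (8.45), vehicle pool 4 (8.44) and odor pool 3 (8.39). Among GFP-positive arrays it was highest in odor pool 4 (7.36), unlike Apoe. The mature neuron list of GFP-negative arrays ran the other way, from odor pool 2 (12.96) down to odor pool 4 (12.69). Fabp7 lay near the sustentacular markers in part: among GFP-positive arrays both were high in vehicle pool 2 (Fabp7 8.55, marker mean 9.40) and odor pool 3 (8.47 and 9.53), and among GFP-negative arrays both were lowest in vehicle pool 4 (8.47 and 10.8). Among GFP-positive arrays vehicle pool 4 had the lowest sustentacular mean (8.82) and the third highest Fabp7 (8.14). The astrocyte markers were likewise highest in vehicle pool 2 (marker mean 7.53) and odor pool 3 (7.50) among GFP-positive arrays. So were the lists of ensheathing glia, myelin, ErbB, neural crest, Fabp7 relatives, endothelium, and fibroblast and mural cells. High values on these arrays are thus not particular to sustentacular markers. Among GFP-negative arrays the astrocyte markers were lowest in odor pool 4 (7.59), unlike Fabp7. There the sustentacular mean was highest in odor pool 3 (11.3) and Fabp7 in vehicle pool 1 (9.43). The pairings of genes with marker lists shown here were not fixed by a rule.

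**Figure D4:**
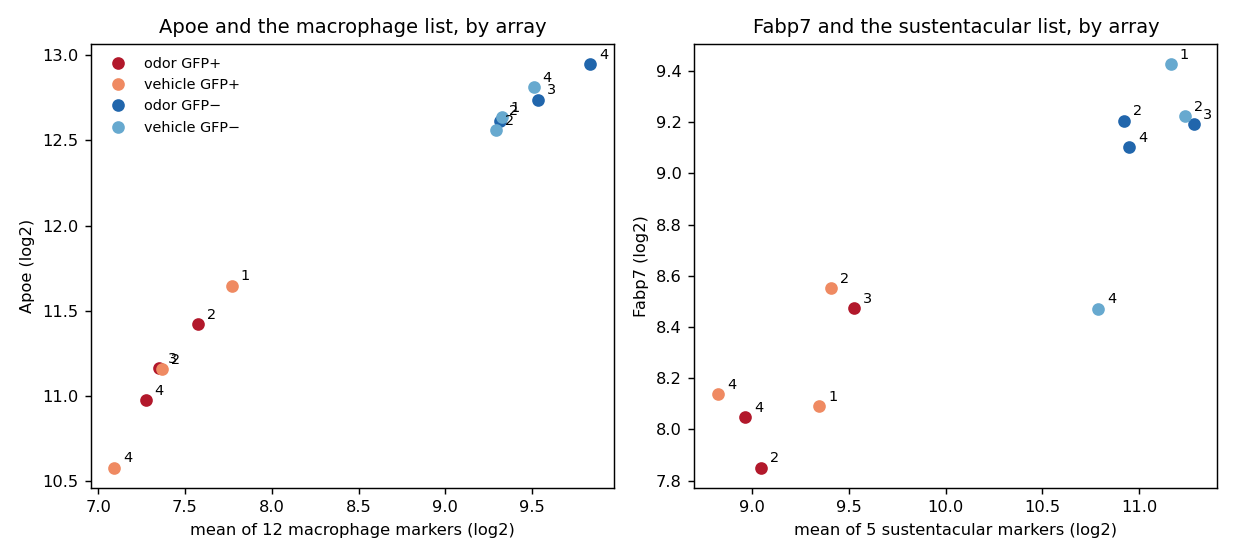
Apoe against the mean of 12 macrophage markers (left) and Fabp7 against the mean of 5 sustentacular markers (right), all log2, 1 point per array, coloured by group and numbered by pool. Apoe and the macrophage mean were highest together in vehicle pool 1 among GFP-positive arrays and in odor pool 4 among GFP-negative arrays, and Fabp7 was lowest among GFP-negative arrays in vehicle pool 4.

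The genes whose profiles were closest to each of the 6 were found by the root mean square difference over the 12 arrays. Each gene was centred on its own mean, and predicted genes and the 6 themselves were left out. The profiles share arrays and the sort, so that closeness describes these arrays. For Apoe, whose own root mean square was 0.82, the closest were C1qc (0.114), Mrc1 (0.147) and P2ry13 (0.151), and C1qc and Mrc1 are on the macrophage list. For Fabp7 (own 0.53) they were Sparcl1 (0.152), Atp13a5 (0.186) and Fmo1 (0.187). For Erbb3 (own 0.82) they were Slc5a9 (0.0976), Rasal3 (0.100) and Dennd2d (0.101), and for Sox10 (own 0.38) Dnaaf3 (0.0739), Slco4a1 (0.0915) and Ackr4 (0.0949). No gene of the ensheathing glia list was among the 3 closest to any of the 6. The measure keeps the size of a difference. List genes with small differences could thus not come close to Erbb3, Apoe, Fabp7 or Sox10, and nothing is concluded from their absence. The closest to Ncmap (own 0.20) were Zfhx4 (0.0568), Meltf (0.0707) and Ubn2 (0.0722). Those to S100b (own 0.077) were Htra1 (0.0458), Cercam (0.0475) and Ankrd50 (0.0483). The mean profile of the 6 was closest to Smagp (0.0514), Sptb (0.0580), Nadk (0.0706) and Egfr (0.0713), the last a gene of the ErbB list. Next were Cnn3 (0.0744), Ano1 (0.0761), Gata6 (0.0766), Nkd1 (0.0775), Kndc1 (0.0787) and Cln3 (0.0796).

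The comparison of odor with vehicle mice asks whether the accord pulses changed the transcripts within a fraction. Of the 6 genes 0 were called in GFP-positive cells and 0 in the GFP-negative fraction, against 0.00502% and 0% of all genes (limma), and 0 of 6 had an unadjusted p under 0.05 in either fraction, against 1.3% and 6.53% of all genes. The groups overlapped for all 6 genes in both fractions, whereas they did not for 7.93% of all genes in the GFP-positive and 7.44% in the GFP-negative fraction. Differences here are odor minus vehicle. In GFP-positive cells Erbb3 differed by -0.11 (95% interval -0.27 to 0.06) and Sox10 by 0.11 (-0.07 to 0.29). In GFP-negative cells Erbb3 differed by 0.15 (-0.02 to 0.31, adjusted p = 0.732) and Sox10 by -0.11 (-0.29 to 0.07, adjusted p = 0.780). Both genes thus had the opposite sign in the 2 fractions, but every interval includes 0, so that neither sign is established. Apoe differed by 0.06 (-0.40 to 0.52) in GFP-positive and by 0.10 (-0.36 to 0.56) in GFP-negative cells. Fabp7 differed by -0.14 (-0.62 to 0.35) in GFP-positive and by 0.13 (-0.36 to 0.61) in GFP-negative cells. With 3 arrays a group the intervals of Apoe and Fabp7 are wide, and those of Fabp7 reach -0.62 and 0.61. The intervals are not adjusted for the number of genes. They therefore do not give the smallest change that could have been called. Ncmap differed by 0.00 in each fraction, and S100b by 0.02 in the GFP-positive and -0.03 in the GFP-negative fraction. No gene of the related or marker lists was called in either fraction (0 in each list, limma). The unadjusted p was under 0.05 (limma) in GFP-negative cells for 4 of the 16 ensheathing glia genes and 4 of the 15 myelin genes. The same held for 2 of the 6 pigment cell markers, against 6.53% of all genes. GFP-positive cells had 0 such glia or myelin genes and 1 of 11 neural crest factors, against 1.3% of all genes. In GFP-negative cells 6 of the 16 glia genes and 5 of the 15 myelin genes lay above 0. As none passed over all genes, nothing is concluded from these counts.

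**Figure D5:**
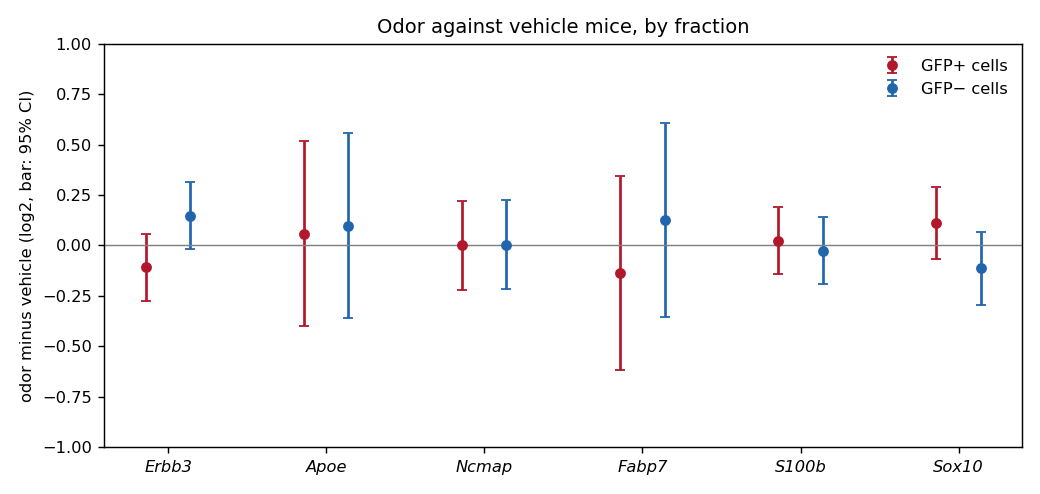
Odor minus vehicle (y axis, log2) for the 6 genes (x axis) in GFP-positive cells (red) and GFP-negative cells (blue), with the 95% interval of the fit. Every interval includes 0, and those of Apoe and Fabp7 are the widest.

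Whether the sort difference itself differed between odor and vehicle mice was tested as an interaction. Of the 6 genes 0 were called, against 0.00502% of all genes, and 1 had an unadjusted p under 0.05, against 4.23%. That gene was Erbb3, whose difference was more negative in odor mice by 0.26 (interaction -0.26, SE 0.11, unadjusted p = 0.0328, adjusted p = 0.971, limma). Sox10 had the opposite sign (0.23, unadjusted p = 0.0748). The larger fall of Erbb3 in odor mice and of Sox10 in vehicle mice did not pass over all genes.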

How the data were processed

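The 12 samples were run on Mouse Gene 1.0 ST arrays. Per the submitters' processing notes the authors used Affymetrix Expression Console to make the log2 values they deposited. The sources used here do not give its version, summarization or scaling. That the scale is log2 follows from the values (2.42 to 14.1). Of 35556 probe sets, 21789 had 1 symbol in the platform annotation. The one with the highest mean was kept per gene, which left 19938 genes, with no filter on low values. Array medians were 7.04 to 7.20. Intensities give no counts, and precision is limited by 3 arrays a group.

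The 4 groups were fitted in limma 3.58.1 (R 4.3.3) without a block, tests two-sided, Benjamini-Hochberg over all genes at 0.05, and the fit was tested on simulated data. Pools pair the fractions because the labels give both fractions of a pool the same replicate number and code. Over genes, the deviations of both fractions correlated by 0.0732 to 0.252. Arrays of different mice that share a number correlated by -0.206 to 0.439. The correlations therefore cannot show the pairing, which rests on the labels. Figures used matplotlib 3.10.9, pandas 2.3.3 and numpy 2.4.6 under Python 3.11.15.

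The 6 genes, the lists and the tests were chosen with earlier results of these data known. Of each list, up to 4 genes called the same way in both treatments with the largest vehicle difference were to be named, with the closest 10 genes to the mean of the 6 and 3 to each, and S100a5 and Omp. Marker lists of other cells are given as counts, and their genes were not named one by one as this rule would have it. The other genes named from the lists (Npy, Foxd3, Gfap, Ngfr, Pllp, Fa2h, Mag, Erbb2, Nrg1, Nrg2, Nrg3, Sox8, Vldlr, Lrp8 and Apoc1) were chosen after their values were seen. Alternatives were other scalings, a low-value filter, probe set means, array weights, another variance prior, 2 groups alone, replicate blocks and leaving out each array.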

Additional observations from a re-analysis of the deposited data

How the results depend on the processing

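Of the 6 genes, 5 were called between the fractions in odor and in vehicle mice under each of 9 alternatives (3 scalings, the low-value filter, probe set means, array weights, the variance prior, 2 groups alone and pool as a replicate block), and 0 between odor and vehicle in either fraction under each of 10. Pool as a replicate block kept 5 calls in each treatment and changed no call among the 6. Without each array in turn, the calls numbered 4 to 5 in odor mice and 4 to 5 in vehicle mice, and 0 to 0 for odor against vehicle and for the interaction; the losses were those of Ncmap and Fabp7 given above. Signs turned only for differences that were not called. Between fractions, S100b was 0.086 in odor mice with centred arrays, and in vehicle mice 0.012 with quantile normalization and 0.042 with centred arrays. For odor against vehicle in GFP-positive cells, Ncmap was -0.0082 with centred arrays, -0.018 with cyclic loess and -0.0025 where title numbers served as a replicate block, S100b was -0.0065 with cyclic loess and -6.1e-05 in that block, and Apoe was -0.0088 with array weights. In GFP-negative cells, S100b was 0.029 with quantile normalization, 0.059 with cyclic loess and 0.028 with array weights, Ncmap -0.083 and Fabp7 -0.14 with array weights. For the interaction, Apoe was 0.015 and S100b -0.028 with quantile normalization, S100b -0.066 with cyclic loess, and S100b -0.023, Ncmap 0.10 and Fabp7 0.043 with array weights. Leaving out 1 array gave, in GFP-positive cells, -0.22 to 0.32 for Apoe, -0.060 to 0.068 for Ncmap, -0.31 to 0.0099 for Fabp7 and -0.013 to 0.086 for S100b; in GFP-negative cells -0.10 to 0.081 for Ncmap, -0.16 to 0.32 for Fabp7 and -0.064 to 0.012 for S100b; and for the interaction -0.31 to 0.22 for Apoe, -0.080 to 0.10 for Ncmap and -0.45 to 0.022 for Fabp7. The cause of these turns was not tested. Replicate numbers shared by odor and vehicle pools mark different mice (r of deviations over genes -0.206 to 0.439), and blocks on the title or code number called 0 of the 6.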
